A study of Bos taurus with 18 samples.

Results

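SOD1, SOD2, CAT and HMOX1 encode antioxidant enzymes, and their transcripts were followed in blood leukocytes of 18 female cattle of 3 breed groups. These 4 genes were chosen by Ensembl identifier: ENSBTAG00000018854 for SOD1, ENSBTAG00000006523 for SOD2, ENSBTAG00000020980 for CAT and ENSBTAG00000015582 for HMOX1. The symbols are those given with the identifiers when the genes were chosen, since the count table itself holds no names. All 4 identifiers were present among the 30162 features of the table, and all 4 passed the filter on low counts, which left 14446 features for testing.

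The groups were 6 F1 hybrids, labelled as Red Angus crossed with Droughtmaster, 6 Droughtmaster animals (a composite breed for the tropics, bred from Bos indicus and Bos taurus cattle) and 6 Red Angus animals (a Bos taurus beef breed). Every animal was a healthy female whose condition was labelled heat stress, so no comparison with unstressed animals was made. Messenger RNA was sequenced from the white cell layer of centrifuged tail vein blood, and the labels give no age, parentage, direction of the cross, batch or pairing. Each library is a single animal.

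Superoxide dismutases convert superoxide into hydrogen peroxide, and catalase splits hydrogen peroxide into water and oxygen. SOD1 is the copper and zinc enzyme of the cytosol, SOD2 is the manganese enzyme of the mitochondrial matrix, and CAT encodes the catalase of peroxisomes. HMOX1 encodes heme oxygenase 1, a stress-inducible enzyme that breaks heme down to biliverdin, carbon monoxide and iron. In human and mouse phagocytes, superoxide is also made on purpose by the NADPH oxidase, and SOD2 and HMOX1 are known there as genes that inflammatory signals and oxidative stress induce.

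Libraries held 11639027 to 24117615 counts and 15507 to 19605 features with at least 1 count. A single feature, ENSBTAG00000037644, took 44.6% of the counts of Droughtmaster replicate 3, so CPM (counts scaled to a common library size) taken from the plain library total are low there for every other gene. CPM below are scaled by TMM, a method that sets libraries to a common level from the bulk of their features, and the TMM factor of that library was 0.424. The 4 genes had at least 192 counts in every library, where counting error alone is at most 7.22% of the value. Identifiers of blood cell type markers were not paired with names in the files, so the cell make-up of each library was not checked. In bulk leukocytes, a difference in the share of a cell type and a difference in RNA per cell cannot be told apart.

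SOD1, the cytosolic dismutase, varied several-fold between animals of each breed and had closely similar breed averages. It ranged over 48.7, 120 and 230 CPM (lowest, median, highest) in F1 animals, 56.9, 137 and 259 CPM in Droughtmaster and 47.0, 136 and 209 CPM in Red Angus. The 3 ranges overlapped almost completely, and the mean was 120 ± 67.7 CPM in F1 animals, 143 ± 68.6 CPM in Droughtmaster and 130 ± 70.0 CPM in Red Angus (SD, n = 6 each).

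The widest gap in SOD1 between neighbouring libraries was 0.80 on the log2 scale. Any gene has a widest gap, and the share of features with one as wide was not computed. In 5 libraries SOD1 lay between 47.0 and 56.9 CPM, and in the other 13 between 99.3 and 259 CPM. The low ones were F1 replicates 2 and 3, Droughtmaster replicate 2 and Red Angus replicates 2 and 4, so every breed had animals on each side. Droughtmaster replicate 3, the highest SOD1 library, measured 110 CPM by its plain library total and 198 CPM by that total without the dominant feature.

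SOD2, the mitochondrial dismutase, had the widest separation between breeds among the 4 genes, with Droughtmaster at the high end. It ranged over 13.9, 41.4 and 68.7 CPM in F1 animals, 45.3, 104 and 190 CPM in Droughtmaster and 14.8, 54.8 and 72.9 CPM in Red Angus. All Droughtmaster animals but replicate 4, 5 of 6, lay above every F1 animal and above every Red Angus animal. Among all features tested, at least 5 of 6 Droughtmaster animals exceeded all F1 animals for 3.86% and all Red Angus animals for 2.73%.

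The mean of SOD2 was 42.0 ± 19.96 CPM in F1 animals, 113 ± 53.0 CPM in Droughtmaster and 47.4 ± 24.1 CPM in Red Angus (SD, n = 6 each). Droughtmaster replicates 2 and 6 were the highest of all libraries, at 190 and 158 CPM. By plain library totals, with no TMM scaling, 4 of 6 Droughtmaster animals exceeded all F1 animals and 3 of 6 exceeded all Red Angus animals. In Droughtmaster replicate 3, SOD2 was 101 CPM with TMM scaling and 42.7 CPM by its total. By totals without the dominant feature it was 77.0 CPM, and 5 of 6 Droughtmaster animals exceeded all F1 animals and 3 of 6 exceeded all Red Angus animals. The shares of all features with such counts by totals were not computed.

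CAT, the peroxisomal catalase, overlapped widely between breeds. It ranged over 51.6, 83.9 and 143 CPM in F1 animals, 37.9, 57.0 and 168 CPM in Droughtmaster and 43.4, 76.6 and 112 CPM in Red Angus. The groups overlapped, and their means were 85.4 ± 31.3, 77.6 ± 47.3 and 76.3 ± 26.9 CPM in F1, Droughtmaster and Red Angus animals (SD, n = 6 each). The Droughtmaster maximum was again replicate 3, which measured 71.0 CPM by its plain library total and 128.03 CPM, still the highest of its breed, by that total without the dominant feature.

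HMOX1, the heme-degrading enzyme, lay close together in Droughtmaster with TMM scaling, except in a single animal. It ranged over 13.6, 26.2 and 70.8 CPM in F1 animals, 16.1, 55.7 and 57.2 CPM in Droughtmaster and 13.1, 40.9 and 61.9 CPM in Red Angus. Droughtmaster replicates 1 to 5 lay between 50.1 and 57.2 CPM, and replicate 6 measured 16.1 CPM. The F1 and Red Angus animals spread over the whole range, with means of 34.1 ± 20.3 CPM in F1 animals, 48.6 ± 16.1 CPM in Droughtmaster and 38.4 ± 18.01 CPM in Red Angus (SD, n = 6 each).

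**Figure D1:**
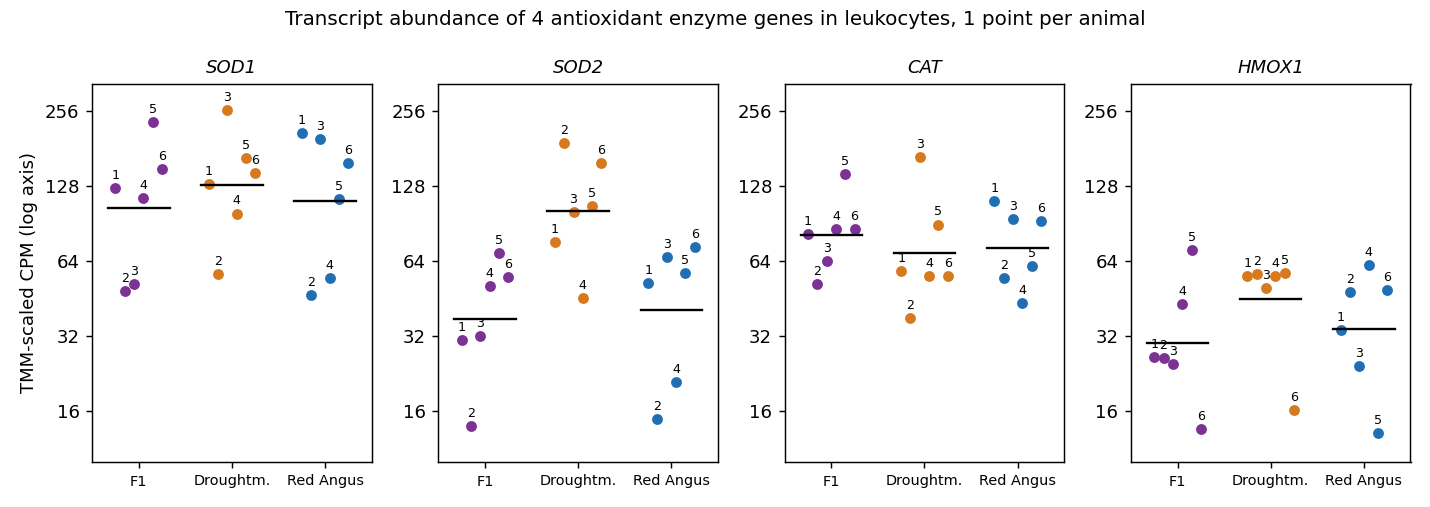
TMM-scaled CPM of each gene on a log axis, with 1 point per animal labelled by its replicate number and a line at the mean of log2 CPM of each breed. Only for SOD2 do most animals of a breed sit above the others: 5 of 6 Droughtmaster points lie above the highest F1 point (68.7 CPM) and the highest Red Angus point (72.9 CPM).

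The first comparison set the hybrids against Red Angus. None of the 4 genes passed edgeR's quasi-likelihood test at an adjusted p under 0.05 (Benjamini-Hochberg over all features), and 0% of all features were called in this comparison. An unadjusted p under 0.05 was reached by 3.23%, and DESeq2's Wald test called 1 feature (0.00698%). The fitted log2 fold changes were -0.11 for SOD1, -0.18 for SOD2, 0.16 for CAT and -0.17 for HMOX1, with an adjusted p of 1.00 for each. The 95% intervals were -1.01 to 0.79 for SOD1, -1.05 to 0.70 for SOD2, -0.55 to 0.87 for CAT and -0.9996 to 0.66 for HMOX1.

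Against Droughtmaster, the hybrids had less SOD2 in the measured means, a difference that did not pass the test over all features. The log2 fold change of F1 minus Droughtmaster was -1.43 ± 0.43 (SE; 95% interval -2.32 to -0.54), which corresponds to 0.372 of the Droughtmaster level, with an adjusted p of 0.100 by edgeR's quasi-likelihood test. The unadjusted p was 0.00326, and 3.24% of the features had a smaller one. In the same comparison 1.18% of all features were called, and 14.1% had an unadjusted p under 0.05. An exact two-sided permutation test of log2 CPM in the 12 animals gave an unadjusted p of 0.0130, where 0.00216 is the smallest p that 6 against 6 allows.

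The call on SOD2 depended on the tool. DESeq2's Wald test gave an adjusted p of 0.0196 for a log2 fold change of -1.45, in a setting that called 4.28% of features. The other alternatives, among them leaving out each animal in turn, gave an adjusted p between 0.0600 and 0.212 by edgeR, the lowest without Droughtmaster replicate 4 and the highest without F1 replicate 1.

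For the other 3 genes the intervals included 0. HMOX1 had a log2 fold change of -0.51 ± 0.40 in the F1 against Droughtmaster (SE; 95% interval -1.34 to 0.32, adjusted p = 0.641), SOD1 one of -0.25 ± 0.43 (-1.15 to 0.66, adjusted p = 0.883), and CAT one of 0.14 ± 0.34 (-0.57 to 0.85, adjusted p = 0.921), all by edgeR's quasi-likelihood test. Leaving out Droughtmaster replicate 3 moved CAT to 0.51 and SOD1 to -0.01.

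Between the parental breeds, SOD2 was again the gene with the largest difference of the 4, and again it did not pass. Droughtmaster minus Red Angus was 1.25 ± 0.43 on the log2 scale (SE; 95% interval 0.36 to 2.14), a fold of 2.38, with an adjusted p of 0.109 and an unadjusted p of 0.00811 by edgeR's quasi-likelihood test. In this comparison 2.6% of all features were called and 19.8% had an unadjusted p under 0.05, with 7.40% below the p of SOD2. The exact permutation test over the 12 animals gave an unadjusted p of 0.0260. This comparison and the previous share the Droughtmaster libraries, so the 2 values of SOD2 are not separate evidence.

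DESeq2's Wald test gave an adjusted p of 0.0361 for SOD2 between the parents, with 7.24% of features called. Under the other alternatives, all by edgeR, it lay between 0.0704 (without Red Angus replicate 5) and 0.222 (without Droughtmaster replicate 6). SOD1, CAT and HMOX1 differed by 0.13 ± 0.43, 0.02 ± 0.34 and 0.34 ± 0.40 on the log2 scale (SE; adjusted p = 0.894, 0.980 and 0.670). The sign for CAT turned with single animals left out, and without Droughtmaster replicate 3 its log2 fold change was -0.29.

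HMOX1 was sensitive to how libraries were scaled. By library totals, both with and without the dominant feature, 4 of 6 Droughtmaster animals exceeded all Red Angus animals and 2 of 6 exceeded all F1 animals. With TMM scaling 0 did in either case. The share of all features with such counts by totals was not computed, so these counts do not set HMOX1 apart from other features. Scaling by DESeq2 size factors and removal of the dominant feature left its fitted log2 fold change of Droughtmaster minus Red Angus between 0.33 and 0.35.

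The mid-parent comparison asked whether the hybrids depart from the average of the parental breeds. F1 minus mid-parent was -0.80 ± 0.38 for SOD2 (SE; 95% interval -1.59 to -0.02; unadjusted p = 0.0456, adjusted p = 0.827), -0.34 ± 0.35 for HMOX1, -0.18 ± 0.38 for SOD1 and 0.15 ± 0.29 for CAT, and none passed. No feature passed edgeR's quasi-likelihood test here (0% called, 5.97% at an unadjusted p under 0.05), while DESeq2's Wald test called 51 (0.356%). Over the 4 genes the median log2 fold change was -0.26 in this comparison, against -0.03 over all features. It was -0.14 against -0.05 for F1 minus Red Angus, -0.38 against -0.01 for F1 minus Droughtmaster and 0.24 against -0.01 for Droughtmaster minus Red Angus. With signs left aside, the median feature had a log2 fold change of 0.20 for F1 minus mid-parent and 0.25 for F1 minus Red Angus. It was 0.33 for F1 minus Droughtmaster and 0.42 for Droughtmaster minus Red Angus. Whether the 4 genes shift as a set was not tested.

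**Figure D2:**
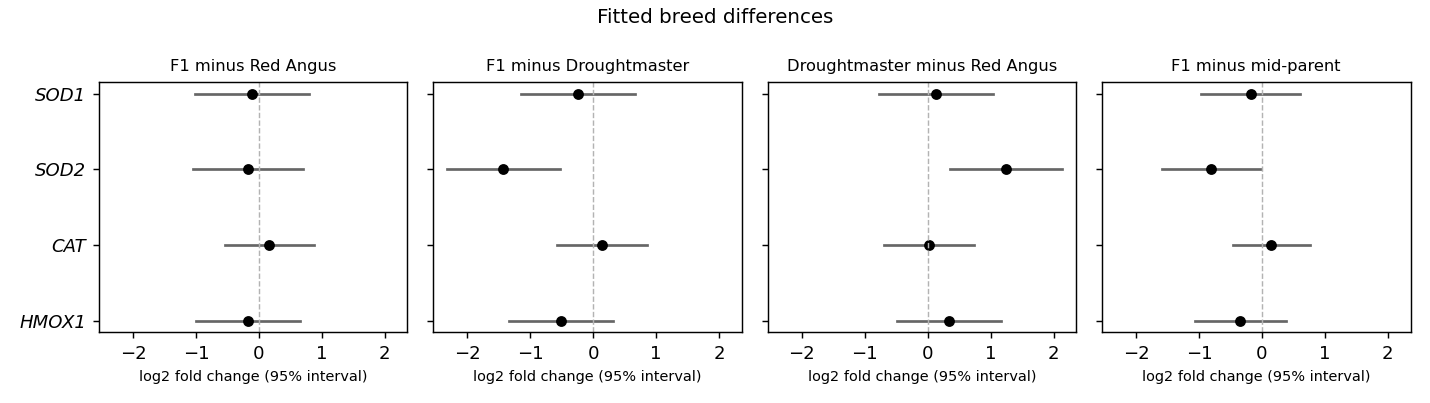
Fitted log2 fold changes (points) and 95% intervals (lines) of the 4 genes in each comparison, from the fit to all 18 libraries. The SOD2 intervals leave 0 out in the F1 minus Droughtmaster panel (-2.32 to -0.54) and the Droughtmaster minus Red Angus panel (0.36 to 2.14), and narrowly in the mid-parent panel, before any adjustment for the number of features.

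In order of mean CPM, SOD1, SOD2 and HMOX1 each ran Droughtmaster, Red Angus, F1, and CAT ran F1, Droughtmaster, Red Angus. By median CPM, CAT ran F1, Red Angus, Droughtmaster (83.9, 76.6 and 57.0 CPM), and so it did by mean log2 CPM. Neighbours in the orders by mean CPM lay closer together than the SD within a breed, apart from Droughtmaster and Red Angus for SOD2. Levels of different genes are not ranked here, since counts depend on transcript length and lengths were not used.

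The spread between animals is given beside that of all features tested. The SD of log2 CPM within the F1, Droughtmaster and Red Angus was 0.88, 0.74 and 0.93 for SOD1, 0.83, 0.74 and 0.96 for SOD2, and 0.81, 0.72 and 0.82 for HMOX1. The median feature had an SD of 0.55, 0.59 and 0.74 in the same order. The share of features with a smaller SD was 81.1%, 66.2% and 68.4% for SOD1, 78.0%, 66.8% and 70.2% for SOD2, and 76.6%, 65.1% and 58.4% for HMOX1. The SD of CAT was 0.49, 0.74 and 0.53, and 41.9%, 67.1% and 27.2% of features had a smaller one. The SD in Droughtmaster depended on scaling. By library totals without the dominant feature it was 0.71 for SOD1, 0.85 for SOD2, 0.62 for CAT and 0.58 for HMOX1. By plain library totals it was 0.67, 1.006, 0.48 and 0.75 in the same order.

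The co-variation of the 4 genes asks whether an animal high in a given enzyme transcript, for its breed, is also high in another. It was measured as Pearson's r of log2 CPM over all 18 libraries after the breed means were removed, for 6 pairs, with permutation of animals within breeds and adjustment over the 6. SOD1 and CAT, the cytosolic dismutase and the peroxisomal catalase, were the pair with the strongest relation. Their r was 0.891 (permutation p = 1e-05, the smallest the resampling can give; adjusted p = 6.00e-05), and Spearman's rho was 0.957 (p = 1e-05).

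SOD1 and CAT had a high r in each breed, which passed in the F1 and Red Angus after adjustment over the 6 pairs of a breed. Within breeds r was 0.941 in F1 animals, 0.915 in Droughtmaster and 0.927 in Red Angus (exact permutation p = 0.00417, 0.0125 and 0.00694, n = 6 each, unadjusted). The adjusted p of this permutation test was 0.0250 in F1 animals, 0.0750 in Droughtmaster and 0.0417 in Red Angus. Without the 2 libraries farthest from the SOD1 median, Droughtmaster replicate 2 and Red Angus replicate 2, r was 0.891. Within the 13 libraries above the SOD1 gap, an alternative chosen after seeing the data, it was 0.915 (permutation p = 2.30e-04), and the 5 below are too few for a value of their own. Leaving out each animal in turn gave 0.871 to 0.920.

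A high r with SOD1 was shared by many features. All points share the scaling and composition of their library, and 7.66% of the 14445 other features had an r above 0.8 with SOD1. CAT lay above 96.9% of features in its r with SOD1, and SOD1 lay above 99.9% of features in its r with CAT. The count ratio of SOD1 to CAT, which does not depend on library scaling, ranged from 0.812 to 1.75 in F1 animals, from 1.501 to 2.57 in Droughtmaster and from 0.857 to 2.08 in Red Angus.

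The dismutases SOD1 and SOD2 had a positive r within the F1 and Red Angus and a value below 0 within Droughtmaster, and none of the 3 passed after adjustment over the 6 pairs of a breed. Their r was 0.842 in the F1 (exact permutation p = 0.0292), -0.189 in Droughtmaster (p = 0.749) and 0.923 in Red Angus (p = 0.0292; n = 6 each, unadjusted; adjusted p = 0.0583 in the F1 and 0.0875 in Red Angus). Spearman's rho was 0.829, -0.0857 and 0.6 in F1, Droughtmaster and Red Angus animals (exact permutation p = 0.0583, 0.919 and 0.242). Red Angus replicates 2 and 4 were the lowest of their breed in both genes. Over all animals r was 0.616 (permutation p = 0.0141, adjusted p = 0.0423) and rho was 0.513 (permutation p = 0.0462). Droughtmaster replicate 2 had the highest SOD2 of all libraries, at 190 CPM, and the lowest SOD1 of its breed, at 56.9 CPM. Without it r over the remaining 17 libraries was 0.834.

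The difference in this correlation between breeds was tested directly and did not pass. For Droughtmaster minus Red Angus the difference in r was -1.11 and the exact permutation p was 0.104, and for F1 minus Droughtmaster it was 1.03 with p = 0.158 (adjusted p = 0.709 for both, over 18 such differences). The SOD1 with SOD2 relation over all animals was also not stable. Its adjusted p stayed under 0.05 in 7 of the 18 sets that left out an animal, and not in those without any of the 6 Red Angus animals, F1 replicates 2, 4, 5 and 6 or Droughtmaster replicate 4, where r was 0.523 to 0.623. Within the 13 libraries above the SOD1 gap, again chosen after seeing the data, r was 0.504 (permutation p = 0.136).

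**Figure D3:**
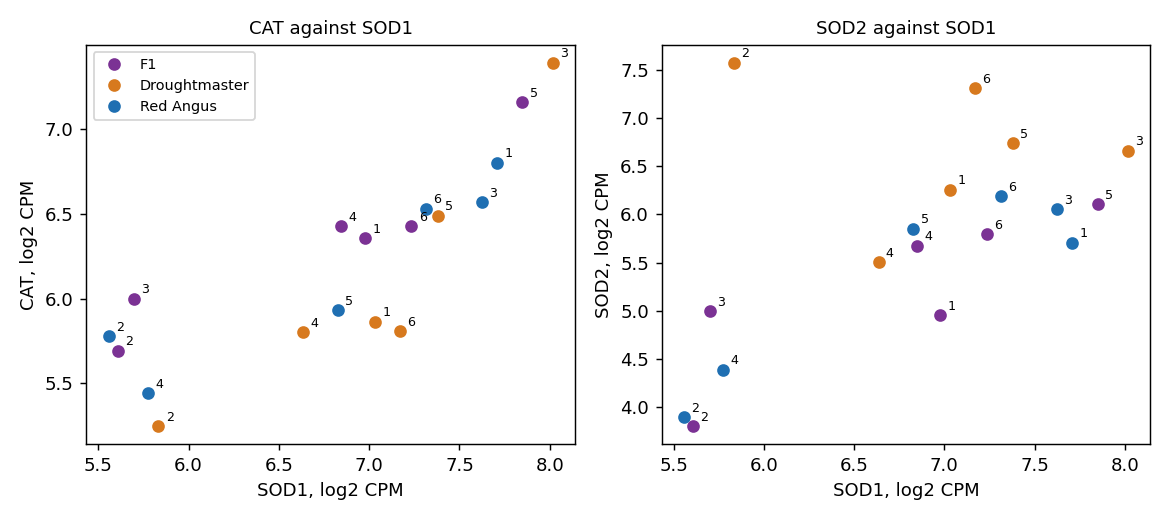
CAT (left) and SOD2 (right) against SOD1 in log2 CPM, with 1 point per animal, coloured by breed and labelled by replicate number. CAT follows SOD1 in all 3 breeds (r of 0.941, 0.915 and 0.927 in F1, Droughtmaster and Red Angus animals), while for SOD2 Droughtmaster replicate 2 stands at the upper left, high in SOD2 and low in SOD1.

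SOD2 counts per SOD1 count, again free of library scaling, set Droughtmaster replicates 2 and 6 apart. The ratio ranged over 0.245, 0.333 and 0.614 (lowest, median, highest) in F1 animals, 0.389, 0.612 and 3.34 in Droughtmaster and 0.249, 0.360 and 0.507 in Red Angus. The 3.34 belonged to replicate 2 and the next Droughtmaster value, 1.10, to replicate 6. The other 4 Droughtmaster animals lay between 0.389 and 0.640, overlapping the F1 and Red Angus. A ratio of counts of different genes is comparable between libraries only, and says nothing of which transcript is more abundant.

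SOD2 and CAT did not pass over all animals. Their r was 0.879 in F1 animals, -0.180 in Droughtmaster and 0.762 in Red Angus (exact permutation p = 0.0292, 0.743 and 0.0958, n = 6 each, unadjusted), and 0.426 over all animals (permutation p = 0.0901, adjusted p = 0.180). Spearman's rho over all animals was 0.397 (permutation p = 0.130). By plain library totals r was 0.604 with an adjusted p of 0.0308, and without Droughtmaster replicate 2 it was 0.625 with an adjusted p of 0.0240.

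HMOX1 followed none of the other 3 genes across all animals. Its r was -0.079 with SOD1, -0.217 with SOD2 and 0.140 with CAT (permutation p = 0.772, 0.422 and 0.587; adjusted p = 0.772, 0.633 and 0.704), and its rho was -0.071, -0.055 and 0.030 (permutation p = 0.794, 0.843 and 0.911). In the F1 the 3 values of r were 0.376, 0.320 and 0.592, and in Red Angus they were -0.436, -0.540 and -0.229. No within-breed value of HMOX1 passed, and the differences between F1 and Red Angus did not pass either (exact permutation p = 0.258, 0.197 and 0.312).

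**Figure D4:**
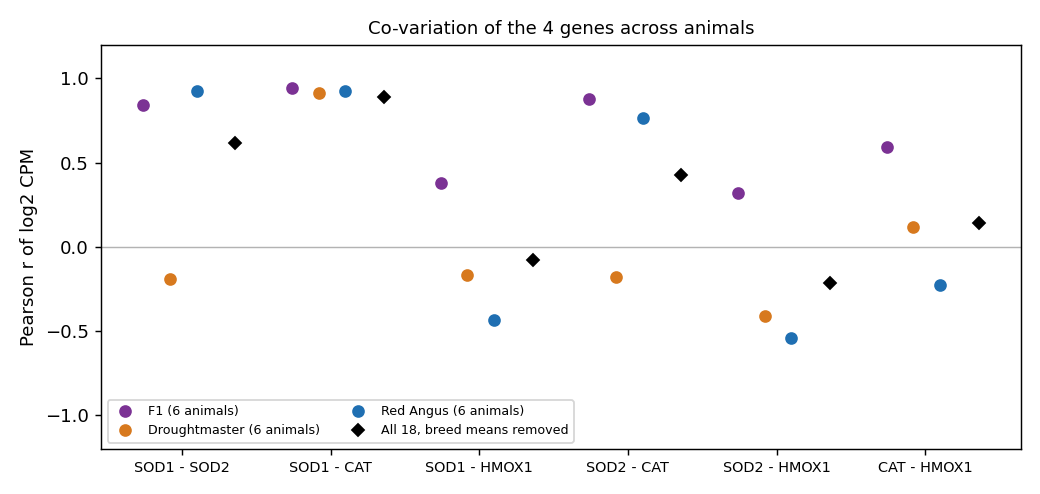
Pearson's r of log2 CPM for each pair of genes, within the 6 animals of each breed (circles) and over all 18 animals with breed means removed (diamonds). The SOD1 and CAT circles lie together above 0.9 in every breed, and the Droughtmaster circle lies below 0 for SOD1 with SOD2 (-0.189) and for SOD2 with CAT (-0.180).

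Several of these genes moved with measures of the whole library. The first principal component, computed from all tested features except the 4 genes, took 35.7% of the variance. With breed means removed, its r was 0.641 with SOD1 (permutation p = 0.0109), 0.604 with SOD2 (p = 0.0196), 0.472 with CAT (p = 0.0546) and -0.621 with HMOX1 (p = 0.0115), where SOD1 and HMOX1 passed after adjustment over 12 relations (adjusted p = 0.0462 for both). Spearman's rho was 0.573, 0.441, 0.534 and -0.540 in the same order (permutation p = 0.0257, 0.0941, 0.0380 and 0.0392). Without the 2 libraries farthest from the median of the component, r was 0.702, 0.485, 0.577 and -0.628. A component that takes 35.7% of the variance follows many features, so these values need not be particular to the 4 genes. The share of all features with an r as strong was not computed.

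The sign for HMOX1 was opposite to that of the other 3 genes. Within F1, Droughtmaster and Red Angus animals its r with the component was -0.228, -0.628 and -0.900. In the same order r was 0.618, 0.850 and 0.569 for SOD1. It was 0.774, 0.0930 and 0.757 for SOD2, near 0 in Droughtmaster, and 0.521, 0.660 and 0.353 for CAT. These values within breeds were not tested. In each breed the animal with the least HMOX1 was the animal highest on the component: F1 replicate 6 (13.6 CPM, score 71.0), Droughtmaster replicate 6 (16.1 CPM, score 98.0) and Red Angus replicate 5 (13.1 CPM, score 96.2). Red Angus replicates 4 and 2, lowest on it at -137 and -112, had 61.9 and 48.0 CPM of HMOX1 but 20.9 and 14.8 CPM of SOD2. F1 replicate 2, at -110, had 26.1 CPM of HMOX1, near the F1 median of 26.2 CPM. Its SOD2, 13.9 CPM, was the lowest of the F1. The libraries below the SOD1 gap included the one lowest on the component in each breed: F1 replicate 2, Droughtmaster replicate 2 (-48.5) and Red Angus replicate 4. Red Angus replicate 2 and F1 replicate 3 (3.39) were also below the gap.

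**Figure D5:**
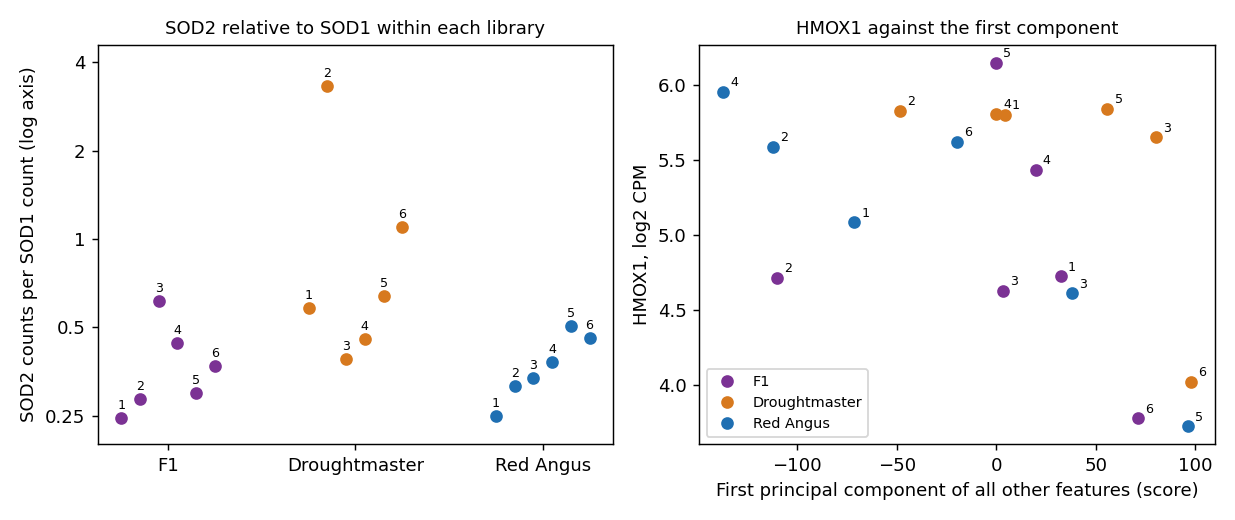
Left, SOD2 counts per SOD1 count in each library on a log axis, where Droughtmaster replicates 2 and 6 reach 3.34 and 1.10 and all others stay at or below 0.640. Right, HMOX1 log2 CPM against the score of each library on the first principal component of all other features, where the lowest HMOX1 animal of each breed is the one at the right end of its breed.

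The number of features with counts had an r of the same sign as the component, stronger for SOD2 and weaker for the others. The sign of the component had been set so that it rose with this number. The breed-centred r of this number was 0.673 with SOD2 (permutation p = 0.00575, adjusted p = 0.0462, rho 0.527, permutation p = 0.0351). It was -0.559 with HMOX1 (permutation p = 0.0270, adjusted p = 0.0647, rho -0.393). With SOD1 it was 0.452 (permutation p = 0.0884, adjusted p = 0.152), and with CAT 0.193 (permutation p = 0.445, adjusted p = 0.534). Without the 2 libraries farthest from its median, r was 0.561 with SOD2 and -0.648 with HMOX1. Its r also differed between breeds. Within F1, Droughtmaster and Red Angus animals it was 0.750, 0.367 and 0.793 with SOD2 and -0.0413, -0.838 and -0.881 with HMOX1. In the same order it was 0.529, 0.103 and 0.590 with SOD1 and 0.495, -0.193 and 0.354 with CAT. Over all animals, total counts had a breed-centred r between -0.347 and 0.330 with the 4 genes, with no adjusted permutation p under 0.279. The rho of total counts was 0.552 with HMOX1 (permutation p = 0.0316) and -0.422 to 0.108 with the others. Within breeds the sign of r differed for SOD1, SOD2 and CAT. In F1, Droughtmaster and Red Angus animals r was 0.431, 0.641 and -0.859 with SOD1. In the same order it was 0.345, -0.712 and -0.791 with SOD2, and 0.371, 0.544 and -0.668 with CAT. With HMOX1 it was 0.366, 0.0543 and 0.529. These within-breed values were not tested. How far cell make-up or RNA quality sets these relations was not tested.

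With the first component removed as well as the breed means, an alternative chosen after seeing the data, SOD1 and CAT kept an r of 0.870 (permutation p = 1e-05). SOD1 and SOD2 then had an r of 0.374 (permutation p = 0.127). CAT and HMOX1 had an r of 0.627 (permutation p = 0.00407, adjusted p = 0.0122), and SOD1 and HMOX1 one of 0.530 (permutation p = 0.0264, adjusted p = 0.0529). Both were larger than before the component was removed. HMOX1 had an r with the component opposite in sign to that of SOD1 and CAT, so removing the component raises both values by construction. The rise is therefore no evidence of a relation, and the permutation made no allowance for the removed component.

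The feature whose pattern was most like that of each gene over the 18 libraries, among features with a mean of at least 5 CPM, was ENSBTAG00000016024 for SOD1 (breed-centred r = 0.986), ENSBTAG00000021214 for SOD2 (0.904), ENSBTAG00000025644 for CAT (0.936) and ENSBTAG00000016532 for HMOX1 (0.950). The files do not pair these identifiers with names. ENSBTAG00000021214, chosen for its likeness to SOD2, measured 81.5 ± 22.1 CPM in F1 animals, 115 ± 28.0 CPM in Droughtmaster and 81.0 ± 28.0 CPM in Red Angus (SD, n = 6 each).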

How the data were processed

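The deposited table holds raw counts per feature, whole numbers that sum to different totals in 18 libraries. Per the submitters' processing notes, HISAT2 2.0.5 and featureCounts 1.5.0-p3 were used with the build ARS-UCD1.2; the sources used here do not give strandedness, so whether antisense reads were kept apart is not known. Columns were matched to samples by title, and groups were taken from the breed label. Libraries were distinct (smallest chi-square per degree of freedom 59.8). Of 27607 Ensembl identifiers, 0 were found in the RefSeq gene table (ARS-UCD2.0), so the further redox and cell type lists were not tested and no sequence or coordinate is given.

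Counts were filtered with filterByExpr, scaled by TMM and tested with edgeR 4.0.16 in R 4.3.3 (quasi-likelihood F test, robust, two-sided, 3 group means over all 18 libraries, Benjamini-Hochberg over 14446 features, threshold 0.05). Standard errors come from the F statistic. Alternatives were DESeq2 1.42.0, its size factors, no filter, only the breeds compared, removal of the dominant feature and leaving out each animal. Log2 CPM use a prior count of 2. Correlations used 100000 permutations within breeds, or all 720 orders of 6 animals, in Python 3.11.15 with numpy 2.4.6, two-sided. Animals carry separate names, and p-values measure the spread between them. The tests were tried on simulated data. The nearest feature to each gene was named by the highest breed-centred r. The 4 genes and all lists were chosen with earlier results of these data known.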

Additional observations from a re-analysis of the deposited data

Results flagged for a closer look

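HMOX1 in Droughtmaster replicate 6 measured 16.1 CPM, while the other 5 Droughtmaster libraries lay between 50.1 and 57.2 CPM. The gap to the nearest library was 0.827 of the whole range, above the 95% critical value for 6 samples. This rule was applied to CPM with TMM scaling only, so the flag holds for that scaling alone. By plain library totals Droughtmaster replicate 6 measured 23.4 CPM and was not the lowest, since replicate 3 measured 21.2 CPM. By totals without the dominant feature replicate 6 measured 23.4 CPM and replicate 3 measured 38.2 CPM. Chance flags about 1 in 20 groups, and 12 groups were examined.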

How the results depend on the processing

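No paired analysis was possible because the labels give the animals of different breeds no shared numbers. Of 364 alternative values of the fold changes, 346 kept their direction and side of the threshold. The exceptions past the threshold were SOD2 under DESeq2's Wald test (-1.45 for F1 minus Droughtmaster, 1.28 for Droughtmaster minus Red Angus). The other 16 turned sign when an animal was left out. With each animal left out, F1 minus Red Angus spanned -0.34 to 0.0740 for SOD1, -0.36 to 0.0198 for SOD2 and -0.47 to 0.0417 for HMOX1. CAT spanned -0.0360 to 0.51 for F1 minus Droughtmaster, -0.29 to 0.20 for Droughtmaster minus Red Angus and -0.0112 to 0.36 for F1 minus mid-parent, and SOD1 spanned -0.0542 to 0.33 between the parents.

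Counts of called features moved more. For Droughtmaster minus Red Angus 376 features became 236 with no filter, 1037 by DESeq2, 31 at an adjusted p under 0.01 and 56 with only those breeds in the fit, and 143 to 1407 with an animal left out. For F1 minus Droughtmaster 171 became 613 by DESeq2 and 32 at 0.01, and 65 to 335 with an animal left out. DESeq2 called 1 feature for F1 minus Red Angus and 51 for F1 minus mid-parent, against 0 by edgeR.

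SOD1 with CAT (r = 0.891) lost its adjusted call only within Droughtmaster alone (0.915, adjusted p = 0.0750). SOD1 with SOD2 (0.616) lost it as rho (0.513), with DESeq2 size factors (0.577), within the F1 (0.842) and Red Angus (0.923), with the first component removed (0.374) and above the SOD1 gap (0.504), and turned to -0.189 within Droughtmaster; with an animal left out it spanned 0.523 to 0.834. SOD2 with CAT was called by library totals (0.604), turned to -0.180 within Droughtmaster, and spanned 0.335 to 0.625 with an animal left out. No pair with HMOX1 kept its sign under every setting. SOD1 with HMOX1 turned to 0.0513 without the 2 farthest libraries, 0.376 within the F1, 0.530 with the component removed and 0.305 above the gap, and spanned -0.300 to 0.0295 with an animal left out. SOD2 with HMOX1 turned to 0.0452 without centring, 0.320 within the F1 and 0.253 with the component removed. It stayed below 0 with each animal left out, at -0.408 to -0.127. CAT with HMOX1 turned to -0.149 by library totals, -0.107 without the 2 farthest libraries and -0.229 within Red Angus, was called with the component removed (0.627), and spanned -0.0379 to 0.277 with an animal left out. The causes were not tested. With 6 animals in each group, the median SE of a log2 fold change was 0.39 in each comparison of a breed group with another. For F1 minus mid-parent it was 0.33.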
